A study of Homo sapiens with 8 samples.

Results

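TARG1, the product of the OARD1 gene, belongs to a small group of enzymes that take ADP-ribose off proteins. The RNA of 8 genes of this group was measured: OARD1, MACROD1, MACROD2, PARG, ADPRH, ADPRS, NUDT16 and GDAP2. They were picked by name, as ADP-ribosyl hydrolases and related proteins, only some of which the study itself depleted, and they make up 8 of the 20165 gene rows counted. Each had 1 row, and all 8 passed the filter on low counts. OVCAR3, a human ovarian carcinoma cell line, was used in 4 groups of 2 RNA-seq libraries each. The siControl and siTARG1 cells were transfected for 48 h with 30 nM of control siRNA or of siRNA against OARD1. The study's methods list 2 siRNAs against OARD1, and the sources do not say which, or whether both, were used for these libraries. RACK1-WT and RACK1-Mut cells carried lentiviral vectors that, under 1 µg/ml doxycycline (Dox) for 48 h, depleted endogenous RACK1 and re-expressed it as wild type or as a mutant of its ADP-ribosylation sites. No group was Dox-treated and transfected at once, and the sources do not say whether each RACK1 line came from a single clone. The RNA was the input lysate of a ribosome profiling experiment, depleted of rRNA. The study's methods describe the replicates of its sequencing experiments as independent biological samples, though the labels give no culture for a library.

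ADP-ribosylation is written by PARP enzymes, which attach a single ADP-ribose (MARylation) or a chain (PARylation) to proteins, and it is reversed by hydrolases of several folds. Macrodomain hydrolases (TARG1, MacroD1 and MacroD2) remove the last ADP-ribose from acidic residues, PARG trims chains but leaves the unit next to the protein, and the ADP-ribosylhydrolases ARH1 (from ADPRH) and ARH3 (from ADPRS) act on arginine and serine linkages. NUDT16 is a Nudix enzyme that can cut within the ADP-ribose, and GDAP2 carries a macrodomain. The study asks how MARylation of RACK1, a protein of the small ribosomal subunit, is put on and taken off. TARG1 is the hydrolase targeted by siRNA in the libraries used here.

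Libraries held 30989049 to 42668783 counts over exons. The deposited counts were scaled to counts per 1000000 (CPM) with edgeR's TMM factors, and 14024 genes were tested in 1 quasi-likelihood fit over all 8 libraries, with a Benjamini-Hochberg adjusted p under 0.05 as the call. All 10 ovarian carcinoma markers looked up, PAX8 and MUC16 among them, were detected in every library. Their summed level was 3950 to 4130 CPM in siControl, 2450 to 2540 CPM in siTARG1, 3800 to 3850 CPM in RACK1-WT and 3800 to 3880 CPM in RACK1-Mut. In siTARG1 against siControl, 6 of the 10 were lower and 1 was higher by the edgeR test, where 46.6% of all genes were called. KRT18 went from 1320 and 1260 CPM to 505 and 535 CPM (log2 fold change -1.31, adjusted p = 1.9e-08 by edgeR). KRT8 went from 1190 and 1130 CPM to 554 and 544 CPM. The 1 called higher was also a keratin, KRT7, from 173 and 145 CPM to 239 and 192 CPM (0.44, adjusted p = 0.0032 by edgeR). MUC16 (-0.70), WT1 (-0.74), SOX17 (-0.55) and CLDN3 (-0.40) were the others called lower. PAX8 (-0.10), EPCAM (0.09) and MECOM (-0.12) were not called. In RACK1-WT against siControl, 7 of the 10 were called (4 higher, 3 lower), where 63.3% of all genes were called, although the sums lay close. The largest changes there were those of KRT7 (1.80) and MUC16 (-1.36). The 4 of 5 markers of other cells that had a row summed to between 5.22 and 8.18 CPM in every library, with CD3E at 0 throughout. COL1A1, at 4.81 to 7.48 CPM, made up most of this sum. PTPRC was at most at 0.798 CPM. It was called higher in RACK1-WT against siControl, at 0.795 and 0.798 CPM against 0.0752 and 0.196 CPM (2.60, adjusted p = 3.5e-04 by edgeR). The part of these shifts in the results on the hydrolases was not tested, and in bulk RNA fewer cells of a type cannot be told apart from less RNA per cell.

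OARD1 lost most of its RNA in siTARG1 cells. It was at 48.5 and 52.0 CPM in the siControl libraries and at 3.11 and 3.98 CPM in the siTARG1 libraries. The groups lay far apart, with means of 50.3 ± 2.46 CPM (SD, n = 2) and 3.54 ± 0.614 CPM (SD, n = 2), so that 7.05% of the control level was left. The log2 fold change was -3.83 (SE 0.12, adjusted p = 1.2e-10 by edgeR's quasi-likelihood test), and the call held in all 18 alternative settings. In the RACK1 lines, which received no siRNA, OARD1 was at 46.2 and 42.9 CPM (RACK1-WT) and at 45.3 and 39.3 CPM (RACK1-Mut). These 4 libraries lay just below the siControl libraries and overlapped each other.

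The OARD1 locus (GRCh37, chromosome 6, minus strand) runs from 41001366 to 41065526, and 4 of its 16 annotated transcripts were counted. Its span overlaps those of 4 other counted genes. NFYA, which encodes a subunit of a CCAAT-binding transcription factor, is transcribed from the opposite strand, and its annotated span begins at 41040713. NFYA fell in siTARG1 cells, from 27.8 and 26.2 CPM to 17.9 and 19.7 CPM (log2 fold change -0.52, SE 0.08, adjusted p = 1.8e-04 by edgeR). UNC5CL, a death-domain protein gene on the same strand, was near 1 CPM in siControl and siTARG1 cells (log2 fold change -0.03, SE 0.26), and TSPO2 and APOBEC2 were at 0 in all libraries.

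**Figure D1:**
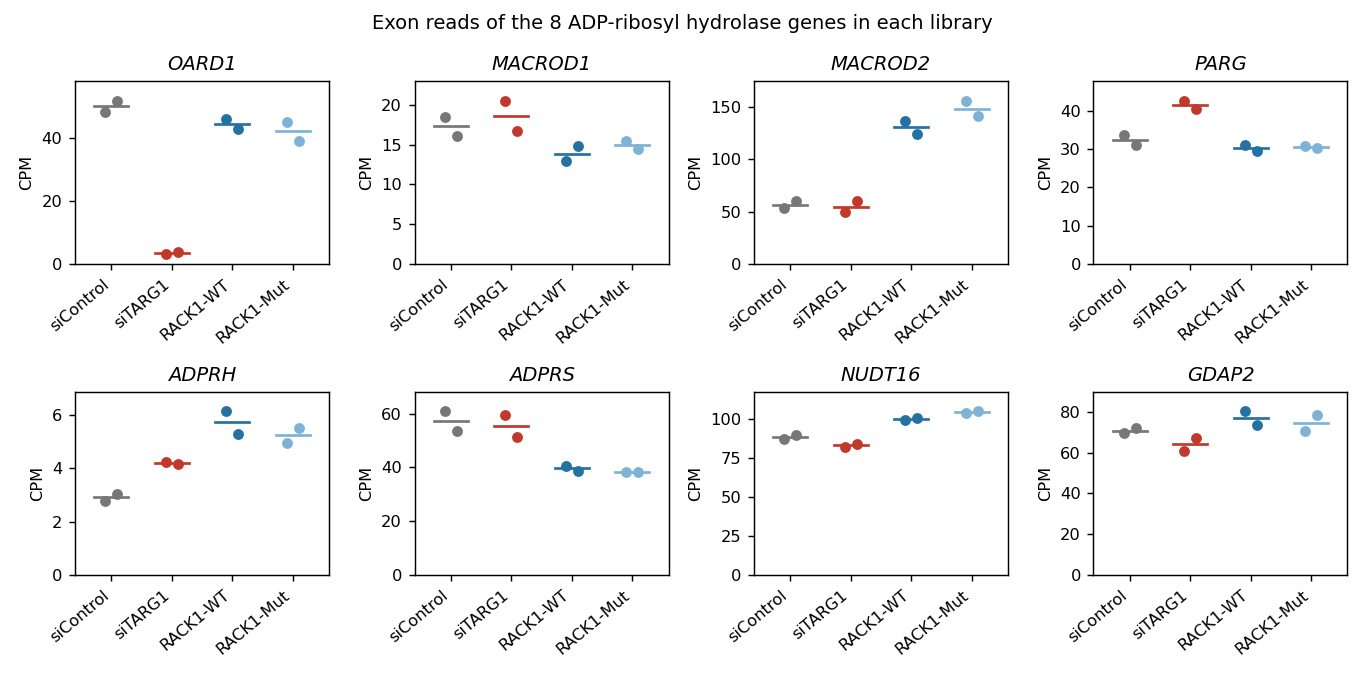
Exon counts of each hydrolase gene as CPM, with a point per library, a line at the mean of the 2 libraries of a group, and an axis from 0 in every panel. OARD1 drops to 3.11 and 3.98 CPM in siTARG1, whereas MACROD2 stands highest in the RACK1 lines, at 124 to 156 CPM.

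The remaining level of OARD1 was also read by region of the mRNA, and it was highest in the 5′ UTR. In the coding sequence (CDS), siTARG1 cells kept 7.11% of the siControl level (17 and 18.4 CPM against 0.921 and 1.60 CPM). In the 3′ untranslated region (UTR), they kept 5.96% (29.8 and 32.0 CPM against 1.74 and 1.94 CPM). In the 5′ UTR, they kept 26.7% (1.74 and 1.57 CPM against 0.444 and 0.439 CPM), a level that rests on 19 and 18 counts in the siTARG1 libraries. Of all OARD1 exon counts, the 5′ UTR thus made up 14.3% and 11.0% in the siTARG1 libraries. The share was 3.58% and 3.03% in the siControl libraries and 3.90% to 4.63% in the RACK1 lines. No siTARG1 library overlapped the other 6 in this share.

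A test of unequal change, 5′ UTR against CDS and 3′ UTR together, was added after these values had been seen. It gave OARD1 a log2 difference between the 2 changes of 2.08 (SE 0.31, adjusted p = 0.0089 by edgeR), with 7 of 6726 genes called (0.104%). The call did not survive with a single siTARG1 library: the difference was 1.93 (adjusted p = 0.24) without replicate 1 and 2.23 (adjusted p = 0.078) without replicate 2. Reads of the 5′ UTR were few in all genes of the group, and only MACROD1, ADPRH and GDAP2 could be tested beside OARD1. Their differences were between -0.09 and 0.25, and none was called.

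The same test of the 3′ UTR against the CDS called no member, the largest value in siTARG1 cells being that of OARD1 (-0.27, SE 0.22, adjusted p = 1). It called 0.0654% of 12225 genes in that comparison. In the other comparisons, the tests called 0.0% (RACK1-Mut against RACK1-WT, 5′ UTR and 3′ UTR alike), 0.164% (RACK1-WT against siControl, 5′ UTR) and 0.245% (RACK1-WT against siControl, 3′ UTR), and no member. With 6 such tests run over 3 comparisons and 2 contrasts of regions, the OARD1 call was the single call of a member.

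**Figure D2:**
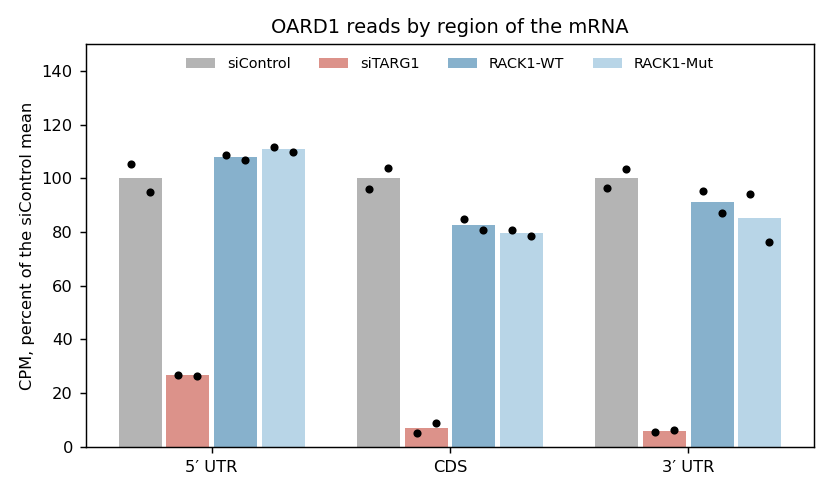
OARD1 counts by region of the mRNA, as a percentage of the siControl mean of that region, with bars for the mean of 2 libraries and a point per library. siTARG1 keeps 26.7% in the 5′ UTR, 7.11% in the CDS and 5.96% in the 3′ UTR.

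The sources used here give no sequence of an siRNA against OARD1. A 7-base word, TGAACAT, had gone with lower RNA in siTARG1 cells in an earlier scan of these libraries, so its distribution is only described. The sites of the group in the counted transcripts are shown because the gene that was targeted and a gene that was not called both carry it. They are given 5′ to 3′ on the strand of the mRNA, with the word in capitals.

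OARD1, first 3′ UTR site: acactctgaaccagTGAACATtttggatg

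OARD1, second 3′ UTR site: aatgattgtatatcTGAACATtaaactac

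NUDT16, 3′ UTR: cctatatgatccctTGAACATactctcca

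The capitals of the first OARD1 site lie at chr6:41035062-41035068 of GRCh37 on the minus strand, and all 4 counted transcripts hold it. The second, at chr6:41032572-41032578, is in 2 of them. The NUDT16 site is at chr3:131104986-131104992 on the plus strand. The word, searched on the mRNA strand, was in 27.5% of 13849 tested genes with a matched transcript, and in 2 of the 8 members. NUDT16, with 1 site, was at 87.0 and 89.5 CPM in siControl and at 82.4 and 83.8 CPM in siTARG1, a log2 fold change of -0.09 (SE 0.06, adjusted p = 0.30 by edgeR) that did not pass. A match of 7 letters is no evidence of a functional site.

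By the likeness of log2 CPM over the 8 libraries, the genes nearest to OARD1 were ERLIN2 (r = 0.9983), GTF2E2 (0.9983), B3GALNT2 (0.9982), CAPNS1 (0.9979) and XRCC4 (0.9977). These correlations rest on the 2 siTARG1 libraries standing apart from the other 6. ERLIN2, an endoplasmic reticulum lipid raft protein, went from 163 and 171 CPM to 37.9 and 41.5 CPM. CAPNS1, the small calpain subunit, went from 419 and 453 CPM to 116 and 124 CPM, and XRCC4, a DNA end-joining factor, from 21.9 and 23.1 CPM to 9.15 and 9.69 CPM. Of the 5 genes, 3 (ERLIN2, CAPNS1 and XRCC4) carry the word in a counted transcript. The 5 genes resemble OARD1 through their fall in siTARG1, and the word had been picked for going with that fall: it was in 39.9% of the genes called lower and in 27.5% of all genes. A gene held the word if any of its counted transcripts did, and transcript length was not matched between these sets. ERLIN2 was also among the 7 genes with an unequal change between the 5′ UTR and the rest (1.92, adjusted p = 0.0089 by edgeR, the same direction as OARD1).

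Beyond OARD1, 2 of the hydrolase genes rose in siTARG1 cells and none of the others was called. In all, 3 of the 8 members were called (2 higher, 1 lower), where 46.6% of the 14024 genes tested were called, 23.5% higher and 23.1% lower. The members' median log2 fold change was -0.04, against 0.007 over all genes. With RPKM in place of counts, 2270 genes were higher and 1287 lower, against 3297 and 3240 in the count fit.

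PARG was at 33.6 and 31.1 CPM in siControl and at 42.6 and 40.3 CPM in siTARG1. The groups did not overlap, and the log2 fold change was 0.36 (SE 0.08, adjusted p = 0.0018 by edgeR). The call was lost only with 3′ UTR reads (0.30, adjusted p = 0.12). Its row counts a single transcript of 2537 bases with no 5′ UTR, and reads shared with a near-identical copy could be split, so the level is uncertain.

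ADPRH, which encodes the arginine-directed hydrolase ARH1, was at the lowest level per length in siControl and in both RACK1 lines. It was at 2.78 and 3.04 CPM in siControl and at 4.23 and 4.16 CPM in siTARG1, or 111 and 93 counts against 179 and 174. Both siTARG1 libraries were above both controls, with a log2 fold change of 0.53 (SE 0.15, adjusted p = 0.0094 by edgeR). The call was lost with CDS reads (0.51, adjusted p = 0.10) and without siControl replicate 1 (0.48, adjusted p = 0.074).

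MACROD1, the mainly mitochondrial macrodomain hydrolase, was at 18.5 and 16.1 CPM in siControl and at 20.5 and 16.7 CPM in siTARG1, which overlapped (0.10, SE 0.12, adjusted p = 0.49 by edgeR). MACROD2 was at 53.3 and 60.0 CPM against 49.8 and 60.1 CPM (-0.04, SE 0.10, adjusted p = 0.76 by edgeR). ADPRS, for the serine-directed hydrolase ARH3, was at 60.9 and 53.4 CPM against 59.5 and 51.2 CPM (-0.05, SE 0.09, adjusted p = 0.68 by edgeR). Within each of these 3 genes the libraries of the groups overlapped. GDAP2 was at 69.5 and 72.1 CPM against 61.0 and 66.9 CPM, without overlap but short of the threshold (-0.14, SE 0.08, adjusted p = 0.16 by edgeR).

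**Figure D3:**
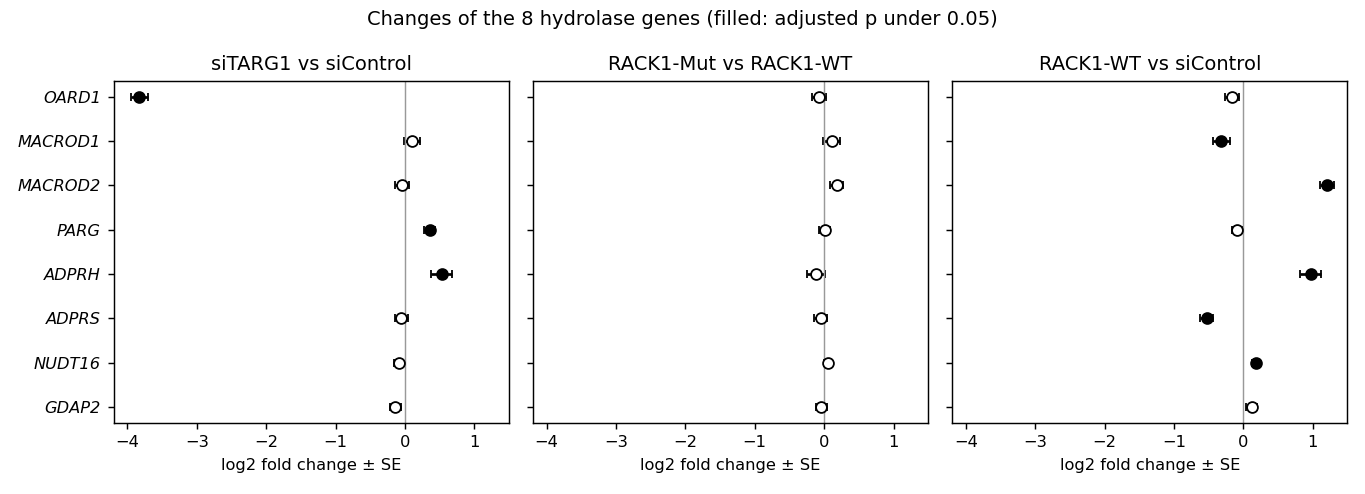
Log2 fold change of each member with its SE from edgeR's fit in 3 comparisons, with filled points for an adjusted p under 0.05. OARD1 is at -3.83 in siTARG1 against siControl, no point is filled for RACK1-Mut against RACK1-WT, and 5 are filled for RACK1-WT against siControl.

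The RACK1 mutant was compared with wild-type RACK1 in cells treated alike with Dox. None of the 8 members was called by edgeR, none had an unadjusted p under 0.05, and none was called by DESeq2. Of all genes tested, 0.00713% (1 gene) were called by edgeR. The members' median log2 fold change was -0.02, against 0.005 over all genes. The largest value was that of MACROD2, at 137 and 124 CPM in RACK1-WT and at 156 and 141 CPM in RACK1-Mut. Its libraries did not overlap, but the log2 fold change of 0.18 (SE 0.09, adjusted p = 1 by edgeR) did not pass. ADPRH, at 6.13 and 5.30 CPM against 4.96 and 5.51 CPM, had the largest value below 0 (-0.12, SE 0.13). OARD1 differed by -0.08 (SE 0.10), PARG by 0.01 (SE 0.08) and ADPRS by -0.05 (SE 0.09). The members' SEs were 0.06 to 0.13 on the log2 scale, but a call also had to pass the adjustment over all 14024 genes tested. PARP12, a mono-ADP-ribosyl transferase, differed by -0.29 (SE 0.07) and was still not called (adjusted p = 0.50 by edgeR). Differences of several SEs could thus be missed.

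Between the RACK1-WT line and siControl cells, which differ in line, vectors, Dox and transfection, 5 members were called (3 higher, 2 lower). The causes cannot be told apart, and 63.3% of all genes were called, 31.9% higher and 31.4% lower. The median was 0.02 for the members and -0.016 for all genes. These siControl libraries are also those of the siTARG1 comparison, and the RACK1-WT libraries those of the mutant comparison. RPKM moved the median of all genes by 0.39 in this comparison, to 0.37, with 6841 genes higher and 946 lower, against 4473 and 4408 in the count fit.

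MACROD2 stood out, with 137 and 124 CPM in RACK1-WT against 53.3 and 60.0 CPM in siControl. The log2 fold change was 1.21 (SE 0.10, adjusted p = 1.2e-07 by edgeR), or 2.31 fold, and held in all 18 alternatives. MACROD2 spans 2058 kb of chromosome 20, and 86.8% to 91.1% of its counts were in the 3′ UTR. Per length, the 3′ UTR held 2.54 to 3.97 times the counts of the CDS, the highest such ratio in the group in each library. The change in the 3′ UTR exceeded that in the CDS by 0.08 on the log2 scale (SE 0.16, adjusted p = 0.85 by edgeR), which did not pass.

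ADPRH was at 6.13 and 5.30 CPM in RACK1-WT, above 2.78 and 3.04 CPM in siControl (0.97, SE 0.15, adjusted p = 5.6e-05 by edgeR), and this call too held in all 18 alternatives. ADPRS was lower, at 40.7 and 38.7 CPM against 60.9 and 53.4 CPM (-0.53, SE 0.09, adjusted p = 1.6e-04 by edgeR). With RPKM its value was -0.09 (adjusted p = 0.68), which is -0.46 after the shift of all genes is taken off.

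The other calls were less stable. MACROD1 was at 12.9 and 14.8 CPM against 18.5 and 16.1 CPM (-0.32, SE 0.12, adjusted p = 0.031 by edgeR), but turned to 0.11 with RPKM, or -0.26 less the shift, and lost its call without siControl replicate 1 (adjusted p = 0.24) or RACK1-WT replicate 1 (0.22). NUDT16 was at 99.5 and 101 CPM against 87.0 and 89.5 CPM (0.18, SE 0.06, adjusted p = 0.022 by edgeR) and kept its call in 11 of 18 alternatives. OARD1 (-0.17, SE 0.10), PARG (-0.09, SE 0.08) and GDAP2 (0.12, SE 0.08) were not called.

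The order of levels was read per length of exon. In siControl, ADPRS was highest at 34.3 ± 3.18 CPM per kb (SD, n = 2). NUDT16 (14.4 ± 0.292), MACROD1 (14.3 ± 1.42) and OARD1 (14.1 ± 0.688) followed and could not be ordered, since their libraries overlapped. PARG (12.7 ± 0.685), MACROD2 (11.3 ± 0.940), GDAP2 (8.01 ± 0.209) and ADPRH (0.631 ± 0.0394) came next, each below the last without overlap.

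In siTARG1, OARD1 was at 0.990 ± 0.172 CPM per kb, a level that overlapped that of ADPRH (0.910 ± 0.0107). The summed level of the 8 genes was 112 and 108 CPM per kb in siControl and 102 and 95.8 CPM per kb in siTARG1, and OARD1 made up 12.1% and 13.5% of it in the first and 0.855% and 1.16% in the second. Without OARD1 the sum was 98.5 and 93.1 CPM per kb against 101 and 94.7 CPM per kb, which overlapped. In RACK1-WT and RACK1-Mut, MACROD2 led, at 26.2 ± 1.78 and 29.7 ± 2.26 CPM per kb, followed by ADPRS at 23.8 ± 0.852 and 22.9 ± 0.0875 CPM per kb.

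**Figure D4:**
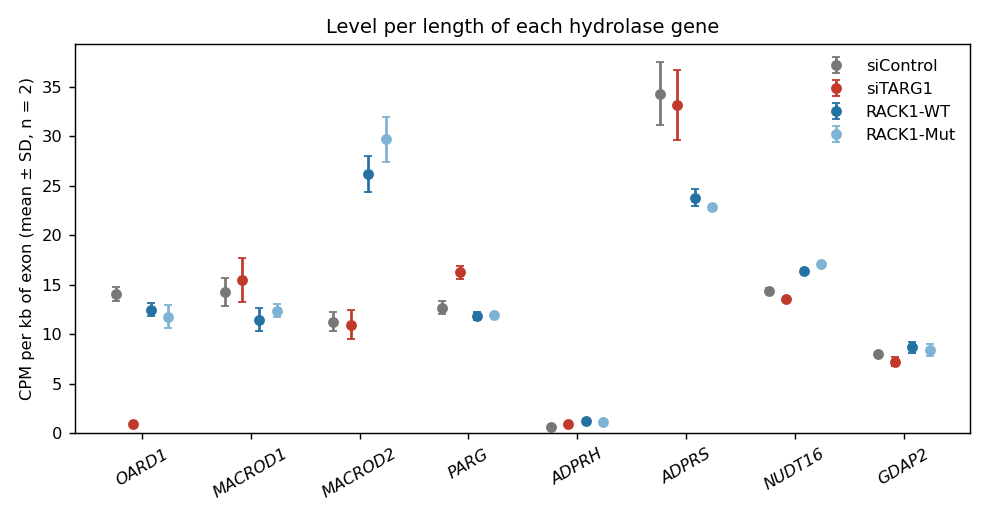
Level of each gene per kb of exon, as the mean with the SD of 2 libraries, in 4 groups. ADPRS is highest in siControl and siTARG1 (34.3 and 33.2 CPM per kb), and MACROD2 in RACK1-WT and RACK1-Mut (26.2 and 29.7).

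Genes around the hydrolases were read from 4 lists. Of the poly-ADP-ribose writers and their cofactor, 4 of 5 were called in siTARG1 cells (3 higher, 1 lower; median 0.48), where 46.6% of all genes were called. PARP2, a DNA damage-activated writer, went from 8.88 and 10.3 CPM to 14.5 and 16.2 CPM (0.68, SE 0.10, adjusted p = 9.6e-05 by edgeR). The tankyrases TNKS (0.48, adjusted p = 4.7e-04 by edgeR) and TNKS2 (0.53, adjusted p = 9.8e-05 by edgeR) rose as well. HPF1, the cofactor that directs PARP1 and PARP2 to serine, fell from 35.2 and 35.4 CPM to 25.7 and 25.6 CPM (-0.46, adjusted p = 2.0e-04 by edgeR), whereas PARP1 was not called (-0.04).

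Of the mono-ADP-ribosyl transferases, 8 of 11 were tested on a row of their own, and 3 were called in siTARG1 (2 higher, 1 lower; median 0.17). That share is below the 46.6% of all genes. These were PARP4 (0.28), PARP8 (0.29) and PARP12 (-0.24). PARP14, a transferase with macrodomains, was at 890 and 744 CPM in siControl and 896 and 906 CPM in siTARG1 (0.14, adjusted p = 0.19 by edgeR). PARP6 shared its row with HEXA and other genes and was left out of these counts. Of the other macrodomain proteins, none of the 5 tested was called in siTARG1 (median 0.02).

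The last list held other enzymes that process ADP-ribose and genes related to such enzymes. Of its 6 genes tested, 3 were called in siTARG1 (1 higher, 2 lower, median -0.11), a share near the 46.6% of all genes. NUDT9, an ADP-ribose pyrophosphatase, rose from 13.1 and 15.6 CPM to 22.2 and 25.4 CPM (0.74, adjusted p = 7.6e-05 by edgeR). ADPRHL1, a relative of ADPRH, fell from 6.62 and 7.62 CPM to 3.67 and 3.97 CPM (-0.89, adjusted p = 1.1e-04 by edgeR), and TRPT1, a tRNA splicing phosphotransferase, fell as well (-0.48, adjusted p = 0.0020 by edgeR).

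No gene of the 4 lists was called between RACK1-Mut and RACK1-WT, where 0.00713% of all genes (1 gene) were called. The log2 fold changes of the listed genes tested ran from -0.30 to 0.13. Between RACK1-WT and siControl, 2 of 5 writers (both higher) and 5 of 8 transferases (1 higher, 4 lower) were called. So were 5 of 5 macrodomain proteins (1 higher, 4 lower) and 4 of 6 processing enzymes and related genes (1 higher, 3 lower). Of all genes, 63.3% were called. PARP14, which is in both the transferase and the macrodomain list, was at 382 and 393 CPM in RACK1-WT (-1.08, adjusted p = 8.4e-08 by edgeR), and PARP9 at 222 and 218 CPM against 512 and 481 CPM (-1.17, adjusted p = 6.2e-09 by edgeR). PARP2 was higher, at 31.2 and 32.5 CPM (1.73, adjusted p = 3.8e-09 by edgeR), as was PARP1 (0.63).

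The lowest value in this comparison among the listed genes was that of the transferase PARP12, at 26.8 and 25.8 CPM in RACK1-WT against 76.4 and 76.5 CPM in siControl (-1.54, adjusted p = 4.5e-10 by edgeR). The other transferases called were PARP3 (0.89), TIPARP (-0.48) and PARP8 (-0.29). The histone variant genes MACROH2A1 (0.35) and MACROH2A2 (-0.45) and the chromatin remodeler CHD1L (-0.40) were called among the macrodomain proteins. Of the processing enzymes and related genes, those called were ADPRHL1 (-0.86), ADPRM (-0.52), NUDT9 (0.40) and NUDT16L1 (-0.62). With RPKM, PARP8 (0.14) and CHD1L (0.03) turned to positive values, which are -0.23 and -0.34 once the shift of all genes is taken off.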

How the data were processed

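RNA-seq of 8 OVCAR3 libraries was used, grouped by their labels, with 30989049 to 42668783 exon counts a library. The authors removed rRNA reads with Bowtie 1.1.2, aligned the rest to a GRCh37 transcriptome with TopHat2 2.1.1, keeping reads with several matches, and deposited estimated counts for exons, 5′ UTR, CDS and 3′ UTR of each gene from alignments of 25 to 51 bases. The authors also deposited RPKM values, used here only as an alternative. Reads shared between near-identical genes can therefore be split or counted more than once. Rows were named through GENCODE transcripts on GRCh37 (94.7% of 36595 transcript names matched). Estimated counts were rounded and tested with edgeR 4.0.16 (R 4.3.3; filterByExpr, TMM, quasi-likelihood fit over 4 groups, 4 residual degrees of freedom). CPM is the region's count over the TMM-scaled exon total. Regions were compared by a library-blocked fit with a region by group term, for genes with at least 40 counts in each region; this test, its minimums and its leave-outs were chosen after seeing the data. Alternatives were DESeq2 1.42.0, limma 3.58.1 on log2(RPKM + 0.1), other scalings, filters and regions, a replicate block, and each library left out. The gene and region fits were also run on simulated counts. For the gene fit, far fewer genes were changed there than were called in siTARG1 or in RACK1-WT against siControl. Its behavior with that many changed genes was thus not checked. The simulation for the region test was rewritten after an earlier version missed its pass mark, and the share of changes recovered was then recorded without a mark. The members, the gene lists and the word were chosen with earlier results of these data known. Named genes were all members, the 5 genes most correlated with OARD1, overlapping genes the text turns on, and listed genes past the threshold. PARP6, and PARP1 and PARP14 in siTARG1, were named outside this rule, after their values were seen. So were PARP12 in RACK1-Mut, markers that were not called, and the genes called in the 5′ UTR test. RPKM values of listed genes were added after seeing the data.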

Additional observations from a re-analysis of the deposited data

How the results depend on the processing

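With 2 libraries a group, the calls of OARD1 (siTARG1), MACROD2 and ADPRH (RACK1-WT against siControl) held in all 18 alternatives. With both libraries of each compared group kept, 2 to 3 members were called in siTARG1 and 0 in RACK1-Mut. In RACK1-WT against siControl, the number was 5 in the main fit and 3 with 3′ UTR reads. It was 4 with CDS reads, with no filter on low counts and with RPKM. The cause of these drops was not tested. With the replicate block the members called were 3, 0 and 5 as without it, and genes called 6559, 3 and 8908 against 6537, 1 and 8881; same-numbered siControl and siTARG1 libraries deviated together with r = 0.256, but the labels pair nothing, so they share only a number. Over all genes, siTARG1 gave 3612 calls with 3′ UTR reads and 3557 with RPKM, RACK1-WT against siControl 5808 with 3′ UTR reads, and RACK1-Mut 17 with DESeq2, 15 without the filter, 0 with at least 10 counts in every library, 49 with its own 4 libraries, 2 with CDS reads, 0 with 3′ UTR reads, 7 with RPKM and 0 to 9 with a library left out.

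Changes of sign concerned members that were not called, except MACROD1 with RPKM. The cause of those outside RPKM was not tested. With RPKM, siTARG1 gave MACROD2 0.06, ADPRS 0.06 and NUDT16 0.02, which are -0.03, -0.03 and -0.07 less the median of all genes (0.09). RACK1-WT against siControl gave OARD1 0.26, MACROD1 0.11 and PARG 0.33, while GDAP2 passed the threshold (0.54, adjusted p = 0.0094). Less the median of all genes (0.37), these are -0.11, -0.26, -0.04 and 0.17, so the signs with RPKM changed with that shift alone. With CDS reads, RACK1-Mut gave PARG -0.0036, ADPRH 0.09 and ADPRS 0.02, and RACK1-WT against siControl gave PARG 0.0023. With 3′ UTR reads, RACK1-Mut gave MACROD1 -0.21. With a library left out, siTARG1 values ran from -0.05 to 0.23 (MACROD1), -0.19 to 0.09 (MACROD2) and -0.16 to 0.06 (ADPRS), and RACK1-Mut values from -0.18 to 0.02 (OARD1), -0.02 to 0.04 (PARG) and -0.12 to 0.03 (GDAP2). In RACK1-WT against siControl, NUDT16 lost its call with no filter (adjusted p = 0.051), CDS reads (0.094), 3′ UTR reads (0.13) and without each siControl or RACK1-WT library (0.058 to 0.12), and MACROD1 with 3′ UTR reads (0.56). The 5′ UTR difference of OARD1 was 1.93 to 2.23 without either siTARG1 library and was called with minimums of 20 and 100 counts; its siTARG1 level rests on 19 and 18 counts.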
